A study of Mus musculus with 6 samples.

Results

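The 9 genes described here, Stat2, Irf7, Irf9, Isg15, Ifit1, Ifit2, Ifit3, Usp18 and Rsad2, belong to the cellular response to type I interferon. They were picked by symbol from a table of 17975 genes measured in whole mouse liver, and all 9 had enough reads to be tested. The study compared 3 Hom mice, in which floxed Nek7 (NEK7 fl/fl) is deleted by a Cre recombinase under the albumin promoter (Alb-Cre), with 3 WT mice, 1 liver per mouse. The study's breeding scheme gives WT as mice with either the floxed gene or Alb-Cre alone, and which of these each sequenced WT mouse carried is not given in the sources used here. Ages are stated for the study's mice in general and are not tied to the 6 sequenced livers. Both groups are on a C57BL/6 background. The albumin promoter is active in hepatocytes, so the other cells of a Hom liver keep Nek7, a kinase known for its part in mitosis and in the NLRP3 inflammasome.

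Type I interferons are secreted when a cell senses foreign or misplaced nucleic acid, and they signal through a receptor made of IFNAR1 and IFNAR2 and the kinases JAK1 and TYK2. STAT2 and IRF9 are then part of the complex ISGF3, which binds the interferon-stimulated response element (ISRE) in promoters and switches on a large set of genes. STAT2, IRF9 and IRF7 are themselves among the products of these genes, as are ISG15, a ubiquitin-like protein joined to other proteins, USP18, which removes ISG15 and dampens receptor signalling, the IFIT proteins, which bind foreign RNA, and RSAD2 (viperin), which makes a nucleotide that stops viral polymerases.

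A binding element found in 5 of the 8 members searched is shown first, because the same letters recur in genes of different function. RefSeq promoter windows of GRCm38.p6, from 250 bases before to 50 bases after a transcription start, covered 8 of the 9 genes in 10 windows. They were searched on both strands for the ISRE core GAAANNGAAA, which reads TTTCNNTTTC on the opposite strand. The core was found in 5 of the 8 genes (62.5%) and in 5 of the 10 windows, against 1131 of 32851 windows (3.44%) in the whole promoter table. The 9 matches follow, read 5′ to 3′ along the strand of the gene, with the core in capitals and 10 bases on either side. All lie upstream of the annotated gene, outside its exons and introns.
Isg15, chr4:156200877-156200906, minus strand: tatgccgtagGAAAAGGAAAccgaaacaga
Isg15, chr4:156200871-156200900, minus strand: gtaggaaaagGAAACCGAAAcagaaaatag
Isg15, chr4:156200865-156200894, minus strand: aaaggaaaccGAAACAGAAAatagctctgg
Stat2, chr10:128270266-128270295, plus strand: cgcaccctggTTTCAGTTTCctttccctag
Rsad2, chr12:26456553-26456582, minus strand: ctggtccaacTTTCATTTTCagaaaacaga
Ifit3, chr19:34583363-34583392, plus strand: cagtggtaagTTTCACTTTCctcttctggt
Ifit3, chr19:34583397-34583426, plus strand: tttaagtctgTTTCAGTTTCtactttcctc
Ifit1, chr19:34640775-34640804, plus strand: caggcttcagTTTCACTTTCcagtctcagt
Ifit1, chr19:34640794-34640823, plus strand: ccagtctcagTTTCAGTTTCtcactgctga

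The 3 matches of Isg15 overlap one another and start 78, 72 and 66 bases before its start site. Ifit1 held a pair of matches, 104 and 85 bases before its start, and Ifit3 held a pair at 156 and 122 bases. The single matches lay 120 bases before the start of Rsad2 and 222 bases before that of Stat2. Irf7, Irf9 and Ifit2 held no match in their windows. The gamma-activated site TTCNNNGAA, the motif best known from the response to interferon gamma, can share letters with an ISRE core at its edge. It was found in the window of 1 member, Ifit2, against 8.3% of all windows. The ISRE core was also found in 81.8% of 11 listed genes best known as targets of interferon gamma, in 37.5% of 40 other listed interferon-stimulated genes and in 7.69% of 13 genes of receptors and signalling. A match describes letters and not binding, which was not measured.

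**Figure D1:**
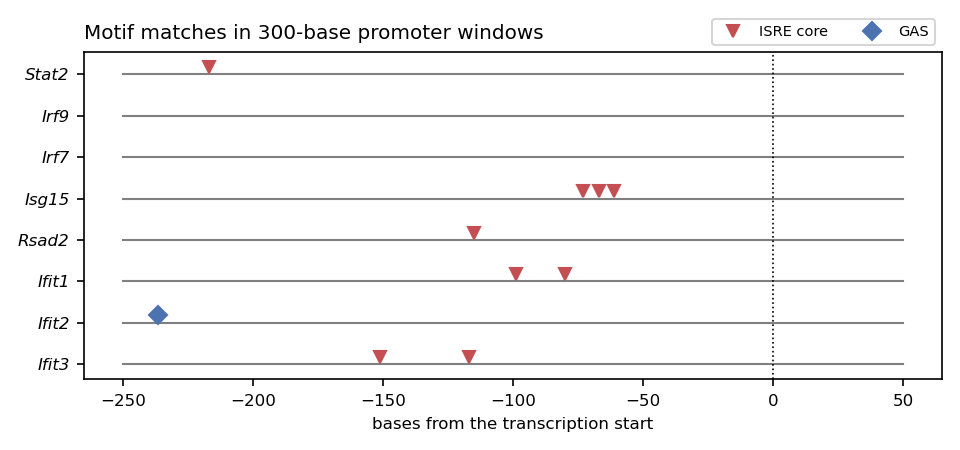
Position of ISRE core matches (red triangles) and gamma-activated site matches (blue diamonds) in the promoter windows of 8 genes, in bases from the transcription start (dotted line). For Irf9 and Ifit2, which have 2 windows each, matches are plotted against the start of their own window. The ISRE matches sit between 222 and 66 bases before the start, and 3 of the 8 genes hold none.

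The libraries were even in depth, with 19349418 to 19730236 estimated counts each, but not in composition. The 10 genes with the most reads in WT took 18.8% to 20.63% of them in WT and 11.72% to 13.63% in Hom livers, and the TMM factors, which correct for composition, were 0.806 to 0.924 in WT and 1.087 to 1.234 in Hom livers. Levels compared between groups are therefore in CPM (counts divided by the TMM-scaled library size, as edgeR computes it), and log2 fold changes are Hom minus WT. Nek7 was at 62.9, 69.1 and 63.7 CPM in WT replicates 1, 2 and 3 and at 14.5, 18.1 and 16.7 CPM in Hom replicates 1, 2 and 3. The targeted gene thus fell by 1.99 on the log2 scale in Hom livers (edgeR adjusted p = 1.59e-04). Alb and Apoa1, which define hepatocytes, had at least 960702 and 121198 counts in every liver. Hom replicate 1 differed from the other 5 livers in that Ddx3y and Kdm5d, both Y-linked, were at 0 counts there and at 243 or more elsewhere; Uty, also Y-linked, was at 149 counts there and at 464 or more elsewhere. In bulk tissue, fewer cells of a type and less RNA per cell cannot be told apart.

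All 9 genes had their highest level in Hom replicate 2, whereas 16.1% of all tested genes were highest in that liver. Hom replicates 1 and 3 stood much nearer to the WT livers. Relative to the WT mean, the median of the 9 genes was 3.65-fold in Hom replicate 2, 1.26-fold in Hom replicate 1 and 1.44-fold in Hom replicate 3. In 7 of the 9 genes, Hom replicate 2 was at least 2-fold above both other Hom livers, a distance that 91 of 13805 tested genes (0.659%) reached; this measure was chosen after the values were seen. No member was 2-fold above both other livers of its group in any of the remaining 5 livers. The median coefficient of variation over the 9 genes was 9.76% in WT and 63.4% in Hom livers, against 12.9% and 10.7% over all tested genes.

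With all 6 livers, 1 of the 9 genes, Ifit2, passed an adjusted p of 0.05 in edgeR's quasi-likelihood test, and it was higher in Hom livers. Of all 13805 tested genes, 21.5% were called higher and 20.1% lower, so the members' count of 1 in 9 is below the share of higher calls among all genes in this fit. DESeq2 called 5 of the 9 higher, against 22.3% of all genes. Without Hom replicate 1, edgeR also called 5 of the 9 higher, against 19.2% of all genes. With all 6 livers none of the 9 was called lower by edgeR, none had a negative fold change, and DESeq2 also called none lower. Over the 9 genes the log2 fold changes had a median of 1.11, against −0.00 over all tested genes. In 6 of the 9 genes all 3 Hom livers lay above all 3 WT livers, against 28.7% of all genes. Without Hom replicate 2 the median was 0.40 and again 1 gene, Ifit2, was called higher, while 14.4% of the 14014 genes then tested were called higher and 13.1% lower.

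**Figure D2:**
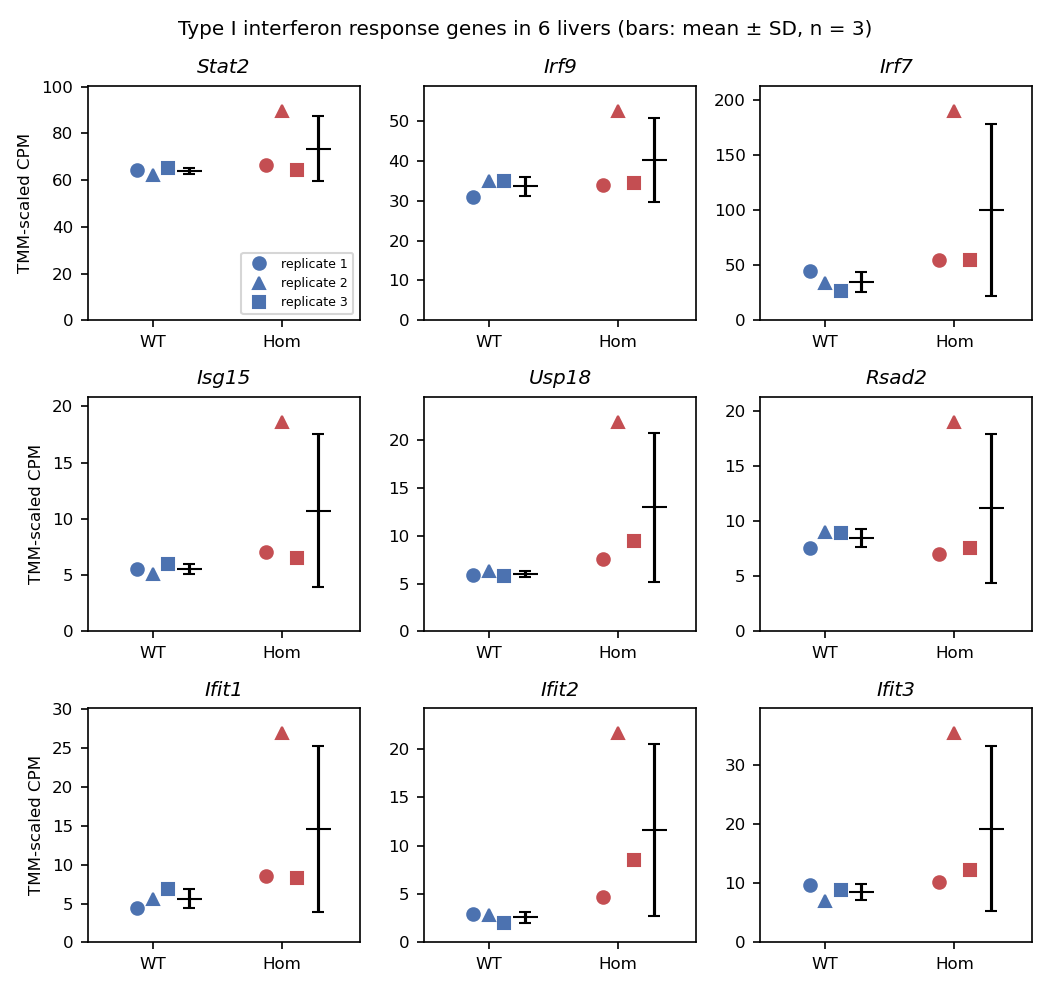
Level of each gene in TMM-scaled CPM in 3 WT (blue) and 3 Hom (red) livers, with marker shape giving the replicate number and black bars the mean ± SD of each group (n = 3). Hom replicate 2 (red triangle) is the highest of the 6 livers in all 9 panels.

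Among the transcription factors, Irf7 differed most between livers. IRF7 is the factor that drives further interferon-alpha production. The gene lies on chromosome 7 (141262706 to 141266481, minus strand, GRCm38). Irf7 was at 44.9, 33.6 and 26.5 CPM in WT replicates 1, 2 and 3 and at 55, 190.4 and 55 CPM in Hom replicates 1, 2 and 3. The groups did not overlap, with Hom replicates 1 and 3 close above the highest WT liver and Hom replicate 2 at 5.44 times the WT mean. The log2 fold change was 1.52 (standard error 0.52), and it did not pass the test (edgeR adjusted p = 0.0516). It passed with DESeq2 (adjusted p = 0.0415). In edgeR it also passed without Hom replicate 1 (adjusted p = 0.0349) or without Hom replicate 3 (adjusted p = 0.0466). Without Hom replicate 2 the log2 fold change was 0.65 (standard error 0.21, edgeR adjusted p = 0.0657).

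Stat2 and Irf9, which encode subunits of ISGF3, stood apart only slightly. Stat2 (chromosome 10, 128270559 to 128292849, plus strand) was at 64.3, 62.3 and 65.1 CPM in the WT livers and at 66.3, 89.5 and 64.4 CPM in the Hom livers, in replicate order. Irf9 (chromosome 14, 55603571 to 55610030, plus strand) was at 30.8, 34.8 and 35.0 CPM in WT and at 33.8, 52.4 and 34.4 CPM in Hom livers. In both genes Hom replicates 1 and 3 lay within or next to the WT values and Hom replicate 2 alone was higher, by 1.40 and 1.56 times the WT mean. Their log2 fold changes were 0.20 (standard error 0.13, edgeR adjusted p = 0.263) and 0.26 (standard error 0.18, edgeR adjusted p = 0.27). Without Hom replicate 2 both were 0.03.

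Isg15 and Usp18, the modifier and its protease, both had Hom values above all WT values. Isg15 (chromosome 4, 156199424 to 156200818, minus strand) was at 5.58, 5.13 and 6.02 CPM in WT and at 7.09, 18.6 and 6.51 CPM in Hom livers. Usp18 (chromosome 6, 121245906 to 121270917, plus strand) was at 5.86, 6.35 and 5.84 CPM in WT and at 7.61, 21.9 and 9.44 CPM in Hom livers. Hom replicate 2 was at 3.33 times the WT mean for Isg15 and 3.65 times for Usp18, and Hom replicates 1 and 3 were at 1.17 to 1.57 times. Neither passed the test, with log2 fold changes of 0.94 (standard error 0.41, edgeR adjusted p = 0.105) for Isg15 and 1.11 (standard error 0.39, edgeR adjusted p = 0.0568) for Usp18. With DESeq2 Usp18 passed (adjusted p = 0.0143) and Isg15 did not (adjusted p = 0.0526). Without Hom replicate 2 the log2 fold changes were 0.28 for Isg15 (edgeR adjusted p = 0.258) and 0.50 for Usp18 (edgeR adjusted p = 0.0763).

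Rsad2 differed from the other effectors in that Hom replicates 1 and 3 were not above the range of the WT livers. The gene (chromosome 12, 26442746 to 26456452, minus strand) was at 7.54, 8.98 and 8.97 CPM in WT and at 7.0, 19 and 7.59 CPM in Hom livers. The log2 fold change was 0.40 (standard error 0.39, edgeR adjusted p = 0.431), and it turned to −0.22 (standard error 0.16, edgeR adjusted p = 0.345) when Hom replicate 2 was left out. The direction for Rsad2 therefore rests on 1 liver.

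The 3 Ifit genes lie within one stretch of chromosome 19, Ifit2 at 34550694 to 34576419, Ifit3 at 34583531 to 34588731 and Ifit1 at 34640871 to 34650009, all on the plus strand. Ifit2 was at 2.96, 2.82 and 1.97 CPM in WT and at 4.71, 21.6 and 8.53 CPM in Hom livers. It was the member with the widest separation, at 1.83, 8.36 and 3.31 times the WT mean in Hom replicates 1, 2 and 3. Ifit2 rose in Hom livers by 2.17 on the log2 scale (standard error 0.56, edgeR adjusted p = 0.0202), and by 1.36 (standard error 0.34, edgeR adjusted p = 0.032) without Hom replicate 2. The call was lost when WT replicate 2 (log2 fold change 2.23, edgeR adjusted p = 0.065) or WT replicate 3 (2.00, edgeR adjusted p = 0.0655) was left out, and the counts behind it were low in the WT livers, at 53, 44 and 32.

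Ifit1 was at 4.47, 5.64 and 6.82 CPM in WT and at 8.59, 26.9 and 8.23 CPM in Hom livers. Ifit3 was at 9.66, 6.99 and 8.85 CPM in WT and at 10.2, 35.4 and 12.2 CPM in Hom livers. In both genes the groups did not overlap, although for Ifit3 the lowest Hom liver exceeded the highest WT liver by little. The log2 fold changes, 1.37 for Ifit1 (standard error 0.49, edgeR adjusted p = 0.0593) and 1.18 for Ifit3 (standard error 0.47, edgeR adjusted p = 0.0846), did not pass the test. With DESeq2 both genes passed (adjusted p = 0.00972 for Ifit1 and 0.0215 for Ifit3). The edgeR log2 fold changes were 0.58 and 0.40 without Hom replicate 2. Estimated counts of Ifit1, Ifit3, Isg15, Stat2, Irf9 and Rsad2 were fractional in at least 1 liver, while those of Irf7, Ifit2 and Usp18 were whole in all 6 livers as deposited, with no tolerance, like those of 52.4% of tested genes. RSEM gives fractional counts where it divides reads between genes, and Ifit3 and Ifit1 have listed relatives, Ifit3b and Ifit1bl1, from which their reads may not be fully separated.

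In the exact two-sided permutation test over the 6 livers, the 6 genes without overlap reached p = 0.1, the smallest that 3 against 3 livers allow. The same test gave p = 0.2 for Stat2, p = 0.6 for Irf9 and p = 0.9 for Rsad2 on exact enumeration. No member can pass 0.05 in that design.

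The size of each difference also depended on how the libraries were scaled. In the TPM values, which the authors computed per gene length and as shares of the library total, all 3 Hom livers lay above all 3 WT livers for 9 of the 9 genes, but so they did for 65.2% of all tested genes. With library size alone in place of TMM, the whole table shifted upwards (median over all genes 0.45 on the log2 scale), and edgeR called 6574 genes higher and 642 lower, against 2974 higher and 2780 lower with TMM and 3477 higher and 2060 lower with upper-quartile factors. Under library size alone 8 of the 9 members were called higher, all except Rsad2. All 9 had a positive fold change under each of these 3 scalings. Relative to that shift of 0.45, Stat2 at 0.66 and Irf9 at 0.73 were the members nearest to the median gene.

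**Figure D3:**
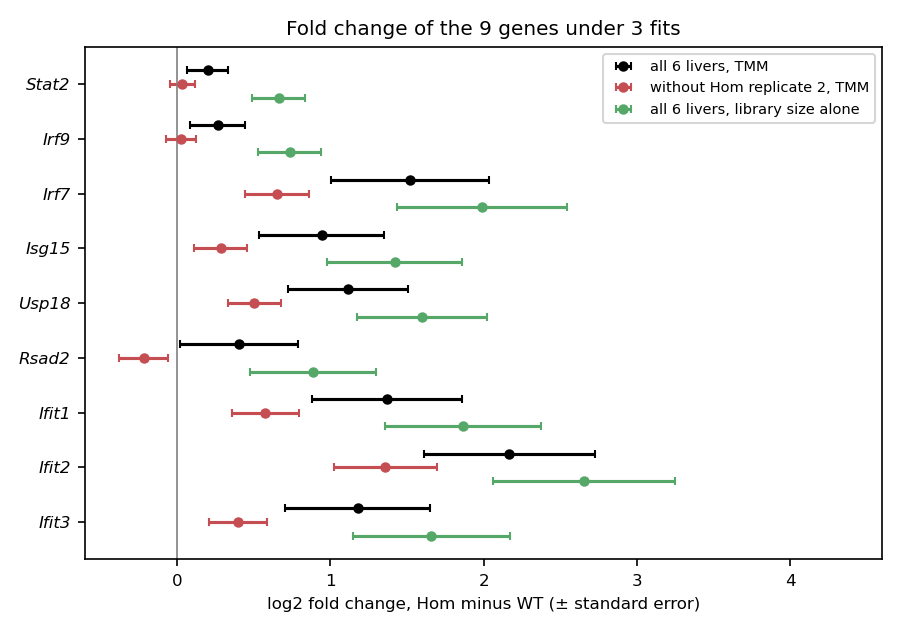
Log2 fold change (Hom minus WT) with its standard error for the 9 genes under 3 edgeR fits: all 6 livers with TMM (black), without Hom replicate 2 (red) and all 6 livers with library size alone (green). Leaving out Hom replicate 2 moves each gene to the left, with Rsad2 crossing to −0.22, and library size alone moves each to the right.

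Per unit of gene length, the factors were expressed above the effectors in WT livers. Irf7 had a mean of 29.0 TPM, Stat2 20.8 and Irf9 20.5, and the single livers of these 3 genes overlapped. Isg15 followed at 11.4 TPM, below every value of the factors. Ifit3 at 6.44 and Usp18 at 5.03 TPM overlapped each other, as did Rsad2 at 3.25 and Ifit1 at 3.09 TPM, and Ifit2 was the lowest at 1.00 TPM without overlap with its neighbours. In Hom livers Irf7 was again at the top, with 62.9, 252 and 70.9 TPM in replicates 1, 2 and 3, above each other member in the same liver. Rsad2, at 3.82, 12 and 4.6 TPM, and Ifit2, at 2.53, 13.4 and 5.04 TPM, overlapped at the bottom of the order.

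The other genes of the pathway were read from the same fit, from lists written with earlier results of these data known. Of 115 listed genes with a row, 111 were tested, with a median log2 fold change of 0.76. By edgeR 48 (43.2%) were called higher and 4 (3.6%) lower, against 21.5% and 20.1% of all tested genes. Without Hom replicate 2, 39 of these 48 (81.2%) were still called higher, no listed gene was newly called higher, and the median was 0.42. Hom replicate 2 was the highest liver for 86 of the 111 genes, against 16.1% of all tested genes. It was at least 2-fold above both other Hom livers for 23, against 0.659% of all tested genes. In 63 of the 111 genes all 3 Hom livers lay above all 3 WT livers, against 28.7% of all tested genes.

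Interferon genes themselves could hardly be read. Of 21 listed, 3 had a row and none had enough reads to be tested. The others had no row, so nothing can be said of their levels. Ifng had 3, 1 and 0 counts in WT and 1, 6 and 3 counts in Hom livers, Ifnk had 1 count in Hom replicate 3 and 0 in the other livers, and Ifnz had 0 in all. Ifnb1 was among the listed genes without a row. Counts this low do not allow a comparison.

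Of 15 genes of receptors and signalling, 7 (46.7%) were called higher and 2 (13.3%) lower, against 21.5% and 20.1% of all tested genes (median log2 fold change 0.36). The type I receptor and its kinases did not pass the test, with log2 fold changes of −0.00 for Ifnar1, 0.18 for Ifnar2, 0.13 for Jak1 and 0.07 for Tyk2 (edgeR adjusted p = 0.994, 0.0876, 0.299 and 0.544). Receptor chains of the other interferon types rose. Ifnlr1, the interferon-lambda receptor chain, was at 0.447, 0.257 and 0.307 CPM in WT and 2.61, 2.56 and 3.84 CPM in Hom livers (log2 fold change 3.12, edgeR adjusted p = 9.95e-04). Ifngr1 and Ifngr2, the chains of the interferon-gamma receptor, rose by 1.17 and 0.98 on the log2 scale (edgeR adjusted p = 0.00243 and 0.00128). Irf3, the factor that acts just after nucleic acid sensing, fell by 0.36 on the log2 scale (edgeR adjusted p = 0.00758), and Irf2, which competes at ISRE sites, fell by 0.65 (edgeR adjusted p = 0.0121). Both falls passed the test without Hom replicate 2 (edgeR adjusted p = 0.0326 and 0.0484), and neither was called with library size alone.

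Among 18 genes of nucleic acid sensing, 8 (44.4%) were called higher and 1 (5.56%) lower, against 21.5% and 20.1% of all tested genes (median 0.86). Tlr3, the endosomal sensor of double-stranded RNA, was at 4.24, 4.36 and 4.92 CPM in WT and 15.3, 19.5 and 18.2 CPM in Hom livers (log2 fold change 1.97, edgeR adjusted p = 3.12e-04). Ddx58, which encodes RIG-I, rose by 0.97 on the log2 scale (edgeR adjusted p = 8.74e-04), and Tlr9, the sensor of unmethylated DNA, which was at 0.246 to 0.447 CPM in the WT livers, rose by 3.11 (edgeR adjusted p = 0.00207). Mavs, the adaptor of RIG-I, fell by 0.41 (edgeR adjusted p = 0.0339). Without Hom replicate 2 the log2 fold change was still −0.41, but the call was lost (edgeR adjusted p = 0.0891). Mavs was also not called with library size alone.

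Of 45 other interferon-stimulated genes tested, 26 (57.8%) were called higher and none lower, against 21.5% and 20.1% of all tested genes (median 0.97). None was lower at an unadjusted p under 0.05 in edgeR, and DESeq2 called none lower. Hom replicate 2 was the highest liver for 42 of the 45, against 16.1% of all tested genes. It was at least 2-fold above both other Hom livers for 13, against 0.659% of all tested genes. Samd9l, a restriction factor, was at 10.8, 7.95 and 7.87 CPM in WT and 36.1, 55 and 41.9 CPM in Hom livers (log2 fold change 2.32, edgeR adjusted p = 4.94e-04). Oasl1, which represses translation of Irf7 mRNA, was at 10.4, 11.8 and 12.3 CPM in WT and 43.1, 54.2 and 35.1 CPM in Hom livers (log2 fold change 1.94, edgeR adjusted p = 5.08e-04). Tnfsf10, the death ligand TRAIL, rose by 1.85 on the log2 scale (edgeR adjusted p = 0.0022). In these 3 genes, named for their small p, every Hom liver was more than 2-fold above the WT mean, while Hom replicate 1 was at 0.824 to 1.83 times the WT mean for the 9 members. Whether the liver patterns differ was not tested.

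Of 17 genes best known for their response to interferon gamma, 3 were called higher (17.6%, below the 21.5% of all tested genes) and none lower (median 0.80; none lower at an unadjusted p under 0.05 or by DESeq2), and Hom replicate 2 was the highest liver for 17 of 17. These were Ciita, the master regulator of MHC class II genes (log2 fold change 2.17, edgeR adjusted p = 0.0057), Gbp8, a guanylate-binding protein (1.81, edgeR adjusted p = 0.00851), and Tgtp1 (2.36, edgeR adjusted p = 0.0318), whose copy Tgtp2 makes its count uncertain. Tgtp1 had the liver pattern of the members, at 10.6, 7.76 and 4.30 CPM in WT and 14.0, 80.0 and 22.2 CPM in Hom livers. Without Hom replicate 2 it was not called (log2 fold change 1.26, edgeR adjusted p = 0.0558). Of 16 negative regulators, 4 were called higher (25%, near the 21.5% of all tested genes) and 1 lower (median 0.35). Tnfaip3, which encodes the ubiquitin editor A20, rose by 2.41 on the log2 scale (edgeR adjusted p = 5.86e-04). Socs3, an inhibitor of JAK kinases, rose by 1.42 (edgeR adjusted p = 0.00303). Ptpn6, the phosphatase SHP-1, rose by 0.48 (edgeR adjusted p = 0.0248), and by 0.36 without Hom replicate 2 (edgeR adjusted p = 0.0785). Rnaseh2c, a subunit of RNase H2, fell by 0.77 (edgeR adjusted p = 0.0027), and this fall was not called with library size alone.

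**Figure D4:**
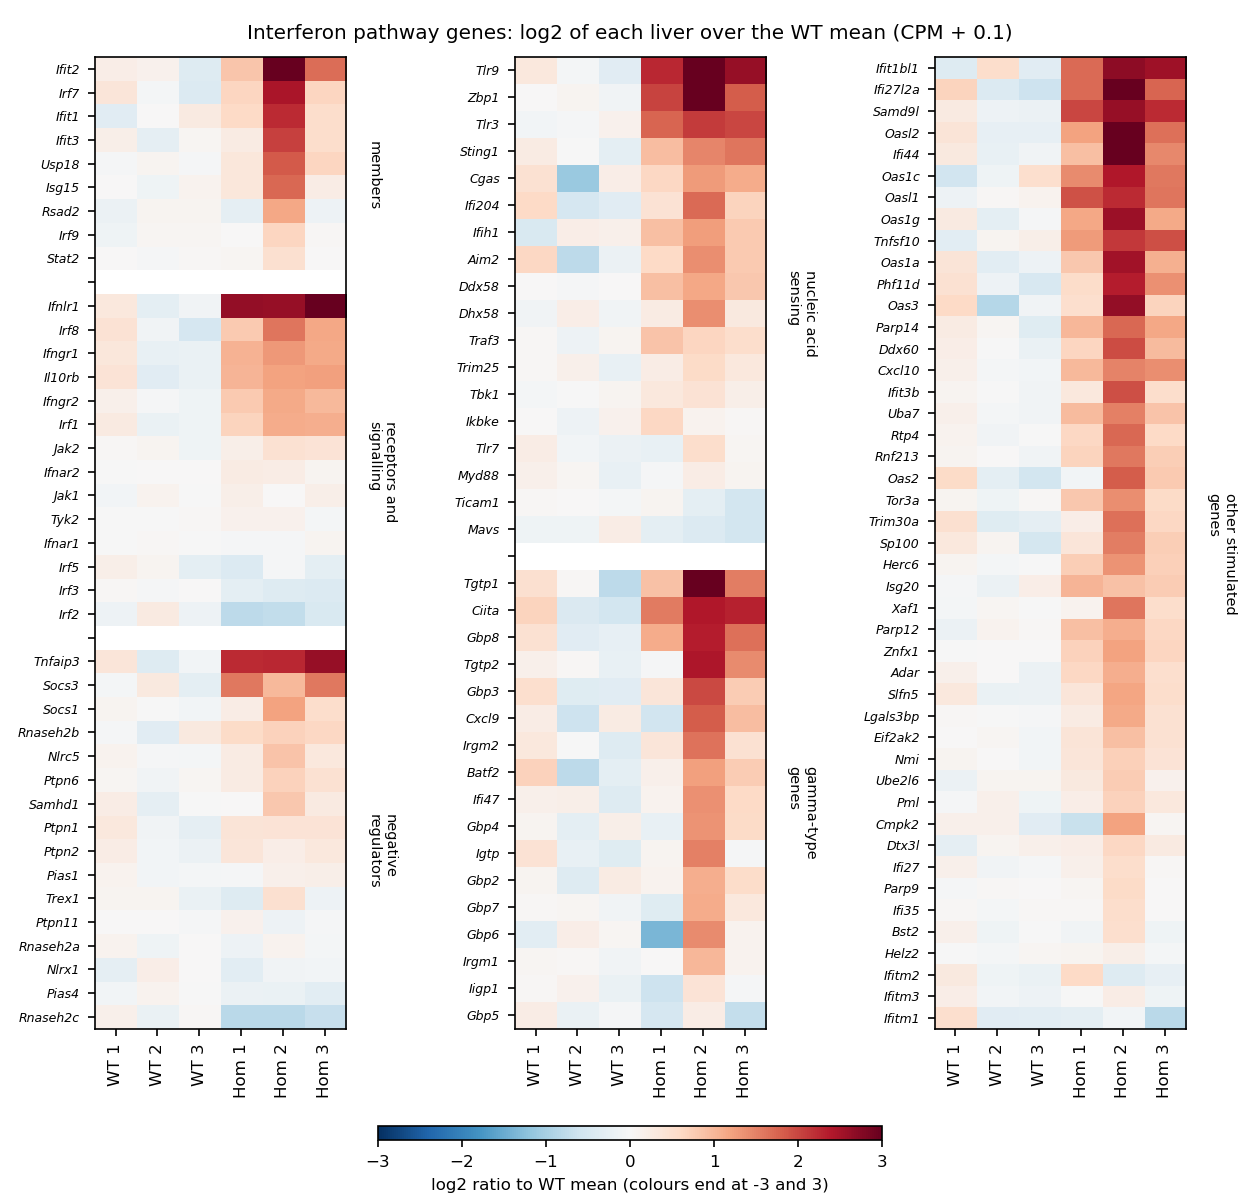
Log2 ratio of each liver to the WT mean, after adding 0.1 CPM, for the 9 genes and other tested interferon pathway genes, one row per gene and one column per liver. Red is above and blue below the WT mean, and colours end at −3 and 3. In the 9 members the red is concentrated in Hom replicate 2, as it is in other listed genes such as Oas3, Ifit3b and Xaf1. Some genes named for their small p, such as Ifnlr1, Tlr3, Samd9l, Oasl1 and Tnfaip3, are red in all 3 Hom livers.

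The genes most like the members across the 6 livers were sought among 12462 genes, by Pearson's r with the mean standardised log2 CPM of the 9 genes. Among the closest were Ifit3b (r = 0.993), H2-T22 (0.986), Xaf1 (0.986) and Parp9 (0.98), and 25 genes reached 0.95. This ranking describes 6 livers of which 1 stands far from the rest, so a gene raised in that liver alone ranks high. Ifit3b was at 2.40, 2.24 and 2.09 CPM in WT and 2.80, 8.90 and 3.28 CPM in Hom livers. Xaf1, another interferon-stimulated gene, was at 8.10, 8.79 and 8.36 CPM in WT and 9.10, 25.8 and 12.1 CPM in Hom livers.

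The summed markers of most cell types did not overlap between the groups, but those of Kupffer cells and of monocytes and neutrophils did. Several sums were highest or lowest in Hom replicate 2. Beside the counts of calls that follow, 21.5% of all tested genes were called higher and 20.1% lower. Summed hepatocyte markers were at 157000 to 189400 CPM in WT and 63030 to 82880 CPM in Hom livers, lowest in Hom replicate 2, with 13 of 16 genes called lower, Alb and Apoa1 among them. Monocyte and neutrophil markers summed to 207.6, 52.02 and 69.31 CPM in WT and 193.8, 272.7 and 218.6 CPM in Hom livers, highest in Hom replicate 2. Of these markers, 3 of 10 were called higher (1 of 10 without Hom replicate 2), and Ccr2 had the smallest adjusted p. Lyz2 made up most of the Hom sums, at 145, 172 and 164 CPM, and was at 104, 39.9 and 50.6 CPM in WT. The neutrophil markers S100a8, S100a9, Ly6g and Cxcr2 had log2 fold changes of −0.57, −0.64, −0.16 and −0.12, and Retnlg had 0.72. None of these neutrophil markers passed the test. Lymphocyte markers summed to 10.7 to 23.1 CPM in WT and to 24.3, 43.7 and 38.5 CPM in Hom livers. Of 7 tested, 2 were called higher, Ptprc and Cd3e, and none without Hom replicate 2. Ptprc alone made up most of the Hom sums, at 17.1, 31.0 and 26.9 CPM. Dendritic cell markers summed to 25.5 to 50.5 CPM in WT and 125.2 to 164 CPM in Hom livers. Of 9 tested, 3 were called higher, among them Itgax and Ly6d, and 1 without Hom replicate 2. Ly6d made up most of that sum in Hom livers, and without it the markers summed to 32.1, 24.3 and 25.8 CPM in WT and 35.9, 55 and 51.1 CPM in Hom livers, where Hom replicate 2 was the highest in place of the lowest. Siglech, the marker of plasmacytoid cells, was at 6, 9 and 11 counts in WT and 4, 36 and 41 counts in Hom livers, with overlapping groups (edgeR adjusted p = 0.259).

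Kupffer cell markers summed to 642.9, 294.1 and 257.1 CPM in WT and 277.8, 419.2 and 345.3 CPM in Hom livers. The sum was again highest among Hom livers in replicate 2, and 1 of 12 was called higher and 3 lower, Clec4f and Timd4 among the latter. Much of the sum in Hom replicate 2 came from C1qa (140 CPM) and Csf1r (104 CPM). Timd4 (1.35, 0.783 and 1.98 CPM in Hom livers), Marco (5.09, 1.77 and 10.2) and Cd163 (5.13, 0.742 and 1.81) were lowest among Hom livers in replicate 2. The other listed Kupffer markers were highest there. Cholangiocyte markers such as Krt19 and Epcam summed to 71.8 to 105 CPM in WT and 682 to 918 CPM in Hom livers (9 of 10 higher). Stellate cell markers such as Col1a1 and Pdgfrb summed to 345 to 418 CPM in WT and 610 to 694 CPM in Hom livers (4 of 10 higher, 2 lower). Most of this rise lay in Col1a1 and Col3a1. Col1a1 was at 13.0, 12.3 and 20.2 CPM in WT and 152, 140 and 161 CPM in Hom livers. Col3a1 was at 33.8, 23.4 and 34.9 CPM in WT and 115, 158 and 176 CPM in Hom livers. Reln and Ngfr were the 2 called lower (log2 fold changes −1.55 and −1.48), and Lrat, Dcn, Des and Rgs5 did not pass the test. Endothelial markers such as Stab2 and Kdr summed to 241.2 to 328.1 CPM in WT and 193 to 199 CPM in Hom livers (1 of 10 higher, 5 lower). Of the listed markers, Retnlg, Klk1, Cd3d and Ncr1 were each at 0 in WT replicate 2, and no marker was at 0 in more than 1 liver. WT replicate 1 had monocyte and neutrophil markers at 189% of the WT mean while the 9 members summed to 104% of it there. The part of these cells in the members' levels was not tested.

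**Figure D5:**
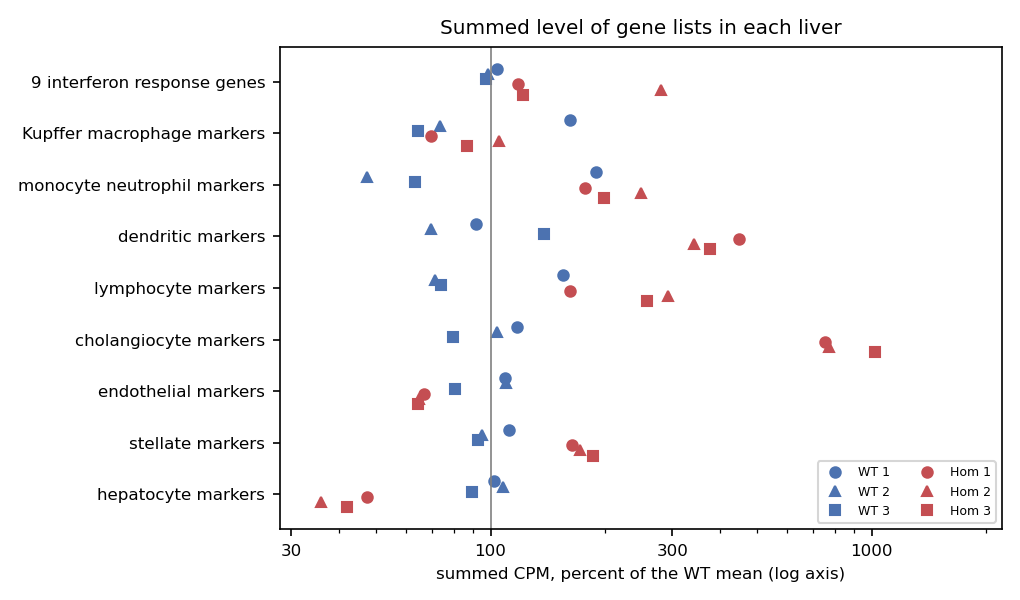
Summed CPM of the 9 interferon response genes and of 8 lists of cell type markers in each liver, as a percent of the WT mean on a log axis, for WT (blue) and Hom (red) livers. Hom replicate 2 (red triangle) stands at 281% for the 9 genes, against 118% and 122% in the other Hom livers. It is also the highest Hom liver for the Kupffer (105%), monocyte and neutrophil (249%) and lymphocyte (292%) sums. For the hepatocyte sum (36%) it is the lowest. Within the Kupffer list, Timd4, Marco and Cd163 are lowest among Hom livers in Hom replicate 2.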

How the data were processed

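RNA from 3 WT and 3 Hom livers was extracted with Trizol and sequenced on DNBSEQ by BGI Genomics. The authors deposited estimated counts, FPKM and TPM per gene and liver. The submitters' processing notes name HISAT2 2.0.4, Bowtie2 2.2.5, RSEM 1.2.12 and mm9, without their order, and annotation and strandedness are not given in the sources used here. The authors' FPKM is per gene length and depth and was used only to recover gene length for the loess offset. The deposited TPM was used for levels between genes. The deposited group means carry crossed names in all 17975 genes (within 0.01 counts) and were not used.

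Estimated counts were rounded and tested in R 4.3.3 with edgeR 4.0.16 (filterByExpr, TMM, glmQLFit, glmQLFTest, Benjamini-Hochberg over 13805 genes, adjusted p under 0.05, two-sided), a procedure tested on simulated data. Exact permutation tests used TMM-scaled CPM and scipy 1.17.1. Alternatives were DESeq2 1.42.0, other scalings, filters of at least 10 counts or none, a minimum log2 fold change of 1, a replicate block, a loess offset for gene length, each liver left out, and robust dispersion, the last chosen after seeing the data. Members and gene lists were chosen with earlier results of these data known. Genes named are the 9 members, Nek7, the type I receptor and its kinases, Irf3, the 3 higher and 3 lower calls of smallest p in each list, genes among the 5 most like the members by r on log2(CPM + 0.5) with a mean of at least 1 CPM, and 2 or more markers per cell type. Same-numbered WT and Hom livers are different mice. Replicate pairs differed by more than sampling noise. GENCODE M21 (GRCm38) gave the gene positions. Some results are not reported here.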

Additional observations from a re-analysis of the deposited data

How the results depend on the processing

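Of the 9 members, edgeR called 1 higher with all 6 livers (21.5% of all genes tested), 8 with library size alone (47.6%), 5 with DESeq2 in its place (22.3%), 3 with upper-quartile factors (25.2%), 3 with the loess offset (22.2%), 2 with at least 10 counts in every liver (20.9%), and 1 with no filter (16.1%), a minimum log2 fold change of 1 (13.2%), the replicate block (17.3%) or robust dispersion (chosen after seeing the data; 21.3%). Leaving out 1 liver gave 0 to 5: 0 without WT replicate 2 (14.5%) or 3 (17.2%; 1 and 2 genes at an unadjusted p under 0.05, DESeq2 not run there), 5 without Hom replicate 1 (19.2%), 3 without Hom replicate 3 (14.2%) and 1 without WT replicate 1 (21.5%) or Hom replicate 2 (14.4%). Under other tools, scalings and filters, further log2 fold changes that passed 0.05 were 0.66 (Stat2), 1.99 (Irf7), 0.73 (Irf9), 1.42 (Isg15), 1.86 (Ifit1), 1.66 (Ifit3) and 1.6 (Usp18) with library size alone, 1.61 (Irf7) and 1.2 (Usp18) with upper-quartile factors, 1.52 (Irf7), 1.37 (Ifit1), 1.18 (Ifit3) and 1.11 (Usp18) with DESeq2, 1.56 (Irf7) with at least 10 counts, and 1.63 (Irf7) and 1.23 (Usp18) with the loess offset. Without Hom replicate 1, Irf7 (1.81), Ifit1 (1.64), Ifit3 (1.48) and Usp18 (1.38) passed, and without Hom replicate 3, Irf7 (1.81) and Ifit1 (1.66). Leaving out 1 liver, log2 fold changes ran from −2.06 to −1.91 for Nek7, 0.03 to 0.29 for Stat2, 0.65 to 1.81 for Irf7, 0.03 to 0.37 for Irf9, 0.28 to 1.2 for Isg15, 0.58 to 1.66 for Ifit1, 1.36 to 2.54 for Ifit2, 0.40 to 1.48 for Ifit3, 0.50 to 1.38 for Usp18 and −0.22 to 0.65 for Rsad2, which reversed without Hom replicate 2. Other pathway genes called higher and lower were 87 and 0 with library size alone (no lower gene at an unadjusted p under 0.05 there, and 4 lower with DESeq2), 30 and 0 with a minimum log2 fold change of 1 (all 4 falls were smaller), and 30 to 62 and 3 to 5 with 1 liver left out, 30 without WT replicate 2. All genes called higher and lower were 6574 and 642 with library size alone, 1825 and 575 with the minimum fold change, and 1986 to 3057 and 1767 to 2750 with 1 liver left out. The cause of these differences was not tested.

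With the replicate number as a block, edgeR called 2383 genes higher and 2214 lower, 39 other pathway genes higher and 3 lower, and 1 member, Ifit2 (log2 fold change 1.92, adjusted p = 0.0318). Correlations of same-numbered livers were −0.109, −0.0563 and −0.0494, and 0 of 6 livers correlated best with its own number, so the numbers were not treated as a pairing. The depth behind the members in WT livers was 32 to 173 counts for the Ifit genes, Isg15, Usp18 and Rsad2 and 431 or more for Stat2, Irf7 and Irf9.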

Other observations

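The 91 genes that were at least 2-fold higher in Hom replicate 2 than in both other Hom livers held 30 listed interferon genes, 7 of them members, and 61 genes outside those lists. Genes of the latter kind, chosen after their values were seen, included some with symbols close to listed interferon genes, such as Slfn1, Slfn4, Gbp10 and Trim30c. Others, such as Zfp967, Gdf9 and Hcn3, had no listed gene close by symbol. A shared function of these genes was not tested. Slfn1 was at 1.06, 0.385 and 0.86 CPM in WT replicates 1, 2 and 3 and at 1.45, 7.30 and 1.72 CPM in Hom replicates 1, 2 and 3, and Ms4a4c was at 0.84, 10.9 and 3.10 CPM in Hom livers. The neutrophil genes S100a8 and Ngp were also among them, with S100a8 at 24.2, 0.577 and 1.90 CPM in WT and 3.55, 11.7 and 2.80 CPM in Hom livers. Among the members, WT replicate 1 was the highest WT liver for Irf7, Ifit2 and Ifit3 and the lowest for Irf9, Ifit1 and Rsad2. It lay between the other WT livers for Stat2, Isg15 and Usp18. The part of neutrophils in the members' levels was not tested. Fgf21, a hepatocyte hormone, was at 0.467, 3.01 and 0.603 CPM in Hom livers and at 3.46, 1.15 and 0.983 CPM in WT livers. The other 5 livers had 47 to 454 genes at least 2-fold above both others of their group.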
